A study of Mus musculus with 6 samples.

Results

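The Notch ligand genes Jag1, Jag2, Dll1 and Dll4, the receptor genes Notch1 and Notch2, the nuclear factor gene Rbpj, the target genes Hes1 and Nrarp, and Atoh1 were followed in 6 RNA-seq libraries of sorted mouse intestinal stem cells. These 10 genes were chosen by name for their place in the pathway, out of the 54838 genes listed for each library. The choice was made with earlier results of these data known. All 10 were abundant enough to be tested. On each of 3 days, cells with high green fluorescent protein were sorted from the pooled intestines of 4 mice of the strain B6.129P2-Lgr5tm1(cre/ERT2)Cle/J, in which the reporter and a CreERT2 recombinase sit in Lgr5, and were set in Matrigel. The INT-777 group (3 libraries, 1 per day) received 30 µM INT-777, a bile acid derivative that activates the receptor TGR5, from 4 h after embedding, and the DMSO group (3 libraries, 1 per day) received the solvent by its title, description and treatment label. The protocol text of all 6 samples, DMSO included, names INT-777 at 30 µM, and the groups were taken from the other labels. Both groups carried the same alleles and had 1 µM of the Notch ligand peptide JAG-1 and 3 µM of the GSK3 inhibitor CHIR99021 in the medium, so every value below is from cells given a Notch ligand, and cells without the peptide were not analysed here. The treatment lasted 12 h by the sample labels and 16 h by the design text. The age and sex of the mice are not given in the sources used here, and each library is a pool, so differences between animals cannot be read.

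Notch signalling passes between touching cells. A Delta or Jagged ligand on one cell binds a Notch receptor on its neighbour, the receptor is cleaved, and its intracellular part enters the nucleus and joins the DNA-binding protein RBPJ to switch on targets such as Hes1. In the intestinal crypt HES1 represses Atoh1, the transcription factor that commits a progenitor to the secretory lineages (goblet, Paneth, enteroendocrine). Cells that make ATOH1 also make the Delta ligands, and so present Notch ligand to their neighbours.

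The libraries held 45682340 to 47905087 read pairs assigned to genes, and RNA integrity numbers of 8.7 to 9.6. The day 3 libraries stood apart from those of days 1 and 2 in both groups, with RNA integrity numbers of 9.0 for INT-777 and 8.7 for DMSO, the lowest of each group. The 7 goblet cell markers summed to 2986, 2887 and 12378 CPM (counts scaled to a library of 1000000 read pairs) in the INT-777 libraries of days 1, 2 and 3, against 5627, 5529 and 28093 CPM in the DMSO libraries. Most of each sum was Fcgbp, with 1729, 1597 and 7862 CPM with INT-777 and 3401, 3332 and 18993 CPM with DMSO. The part of these goblet genes in the differences below was not tested. With RNA integrity as a covariate Jag2 remained the 1 member called by treatment (log2 0.73 ± 0.05, edgeR adjusted p = 7.48e-05), and Jag1 (0.0567), Hes1 (0.0713), Dll1 (0.458), Atoh1 (0.603) and Dll4 (0.784) did not pass. Stem cell markers were present, and their sum lay under the goblet and the Paneth sums in every library. It lay above the enteroendocrine sum on days 1 and 2 and under it on day 3, in both groups. Such sums do not count cells. Lgr5 had 53.7 to 67.2 CPM with INT-777 and 62.2 to 74.5 CPM with DMSO. The 6 stem cell markers summed to 1477 to 1927 CPM with INT-777 and 1872 to 2297 CPM with DMSO, mostly Slc12a2 (997 to 1403 CPM with INT-777 and 1252 to 1619 CPM with DMSO). Paneth markers summed to 2212 to 3477 CPM with INT-777 and 3348 to 3808 CPM with DMSO. Tuft markers summed to 28.3 to 38 CPM with INT-777 and 24.7 to 33.8 CPM with DMSO, and enterocyte markers to 406 to 436 CPM with INT-777 and 331 to 394 CPM with DMSO. Markers of cells outside the epithelium were low. The 8 immune markers summed to 0.996, 1.32 and 4.99 CPM on days 1, 2 and 3 with INT-777 and 1.11, 1.04 and 5 CPM with DMSO. All 7 mesenchymal markers stayed under 1 CPM in every library. Of 6 endothelial markers, 4 stayed under 1 CPM throughout, Emcn was at 0 in all libraries, and the sum of 7.51 to 11.3 CPM with INT-777 and 8.19 to 13.9 CPM with DMSO was mostly Esam.

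Jag2 was the member that rose with INT-777 in the test without day as a term. This gene for a Jagged ligand (ENSMUSG00000002799, chromosome 12, 112907819 to 112929776, minus strand, GRCm38) had 67.9, 65.2 and 61.1 CPM in the INT-777 libraries of days 1, 2 and 3, against 42.0, 44.3 and 33.8 CPM in the DMSO libraries. Each INT-777 library lay above all DMSO libraries. The means were 64.7 ± 3.43 CPM with INT-777 and 40.1 ± 5.54 CPM with DMSO (SD, n = 3 each, as throughout), a 1.62-fold rise with a log2 change of 0.69 ± 0.10 (SE; edgeR adjusted p = 0.0246). With day as a block the rise was 0.70 ± 0.06 (edgeR adjusted p = 6.86e-07). The call without the block depended on single libraries of days 1 and 2: the edgeR adjusted p was 0.153 without INT-777 replicate 1, 0.171 without INT-777 replicate 2, 0.109 without DMSO replicate 1 and 0.0719 without DMSO replicate 2. With the block the call held without the libraries of any 1 day. Those fits leave too few libraries to estimate the spread of a single gene well, so this is a weak check.

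Jag1, the gene of the ligand from which the peptide in the medium takes its name (ENSMUSG00000027276, chromosome 2, 137081456 to 137116644, minus strand), differed less. It had 26.0, 24.5 and 22.5 CPM in the INT-777 libraries, against 21.8, 21.3 and 20.0 CPM in the DMSO libraries. The groups did not overlap, but the lowest INT-777 library and the highest DMSO library were close. The log2 change was 0.21 ± 0.07 and missed the threshold (edgeR adjusted p = 0.229). With the day block it was 0.21 ± 0.06 and passed (edgeR adjusted p = 0.0216), but it did not pass with the block when day 1 (0.121) or day 2 (0.205) was left out. Jag1 and Jag2 were the 2 members, of 10, whose groups did not overlap with INT-777 higher, and no member had its groups apart with INT-777 lower. Of all 15998 genes tested, 13.6% had every INT-777 library above every DMSO library and 11% had every one below. The count ratio of Jag2 over Jag1 was 2.61, 2.67 and 2.72 with INT-777 and 1.93, 2.08 and 1.69 with DMSO. These groups did not overlap, and the exact permutation p of 0.1, two-sided, is the smallest that 3 against 3 allow (0.35 adjusted over the 7 ratios computed).

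**Figure D1:**
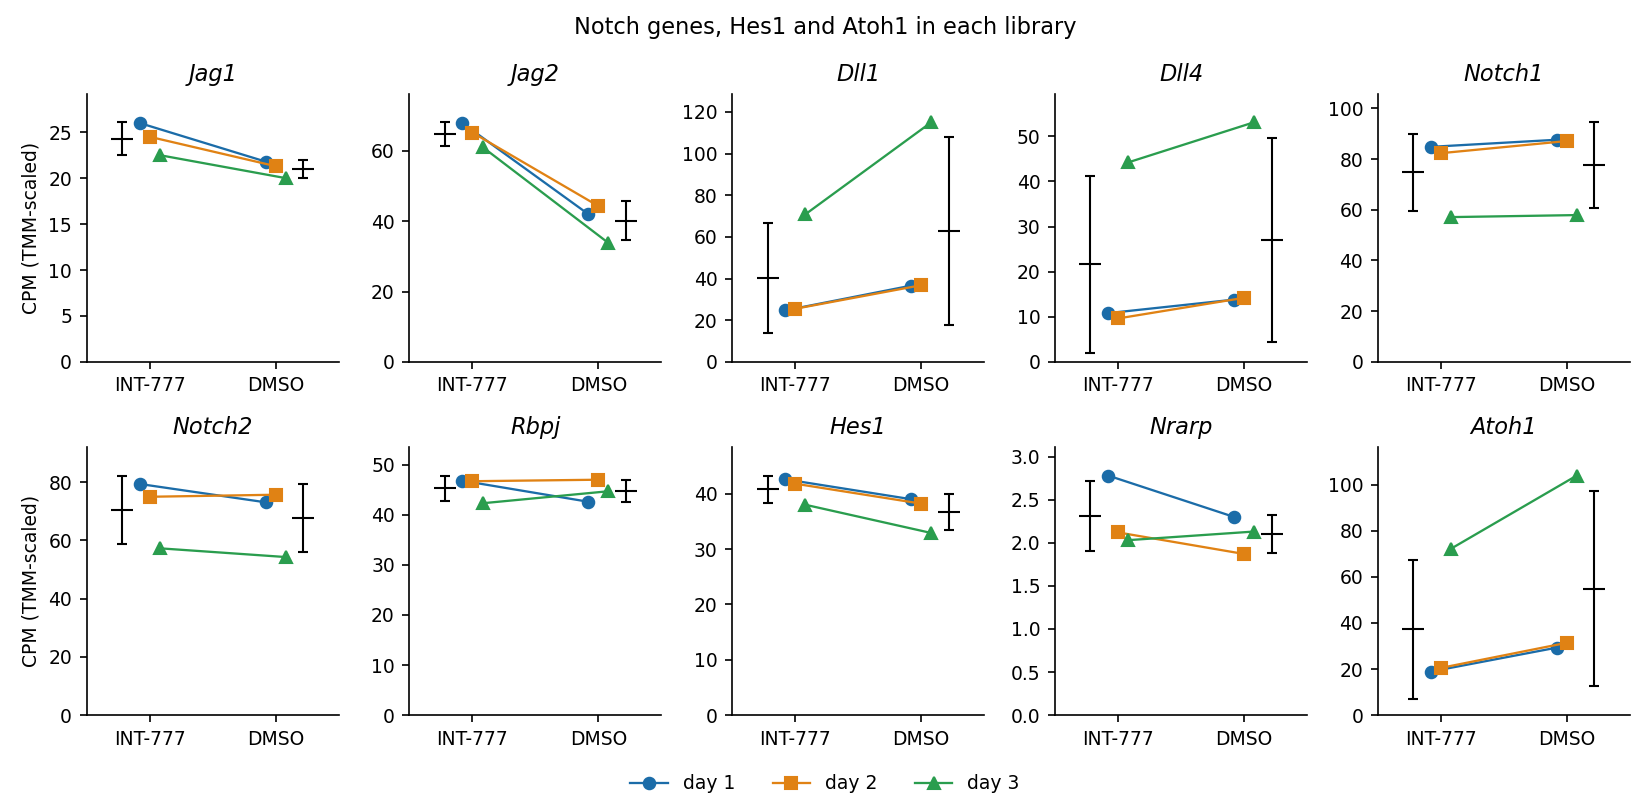
TMM-scaled CPM of the 10 genes in each library, INT-777 left and DMSO right in each panel. Lines join libraries of 1 day, and bars are the group mean ± SD (n = 3); Dll1, Dll4 and Atoh1 are high on day 3 (green triangles) in both groups, and Jag2 is higher with INT-777 on each day.

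Dll1, Dll4 and Atoh1 shared a pattern: lower with INT-777 on each of the 3 days, and several times higher on day 3 in both groups. Their upstream sequences are shown because these genes varied together. They are the 250 bases before the RefSeq start site on GRCm38.p6, in the direction of the gene, with matches to 3 motifs in capitals. The windows are chr17:15376933-15377182 (minus strand) for Dll1, chr2:119325534-119325783 (plus strand) for Dll4 and chr6:64728875-64729124 (plus strand) for Atoh1.
Dll1: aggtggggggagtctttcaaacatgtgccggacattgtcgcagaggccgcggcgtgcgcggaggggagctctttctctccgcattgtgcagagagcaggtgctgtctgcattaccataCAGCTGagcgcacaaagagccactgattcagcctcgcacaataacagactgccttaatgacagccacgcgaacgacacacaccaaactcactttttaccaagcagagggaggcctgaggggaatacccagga
Dll4: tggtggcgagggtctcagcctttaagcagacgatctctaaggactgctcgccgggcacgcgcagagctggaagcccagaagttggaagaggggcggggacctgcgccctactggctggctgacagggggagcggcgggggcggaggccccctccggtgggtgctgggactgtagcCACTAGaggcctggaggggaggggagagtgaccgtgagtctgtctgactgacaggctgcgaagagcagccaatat
Atoh1: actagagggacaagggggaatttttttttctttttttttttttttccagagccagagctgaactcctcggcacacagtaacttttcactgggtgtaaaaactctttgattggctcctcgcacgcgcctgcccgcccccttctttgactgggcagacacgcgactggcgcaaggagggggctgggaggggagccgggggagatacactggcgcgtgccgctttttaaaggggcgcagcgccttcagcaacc
The motifs, searched on both strands, were the RBPJ core TGGGAA, the E-box CAGCTG of the kind that ATOH1 binds, and the N-box CACNAG of the kind that HES proteins bind. The Dll1 window held the E-box, 132 bases before the start, and the Dll4 window held an N-box (CACTAG), 75 bases before it. The Atoh1 window held none of the motifs, and no matches overlapped. Of 32851 RefSeq windows of the same length, 21.6% held the RBPJ core, 13% the E-box and 36.7% the N-box. Of the 10 members, 9 matched the RefSeq table. The motifs were not particular to these 3 genes: the Jag1 window also held the E-box, 82 bases before the start. The windows of Notch1, Notch2 and Nrarp held N-boxes, and that of Rbpj held the RBPJ core. A match is a description of letters and not a measured binding site.

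Dll1, a Delta ligand of the crypt (ENSMUSG00000014773, chromosome 17, 15367354 to 15376872, minus strand), had 24.7, 25.5 and 70.8 CPM in the INT-777 libraries, against 36.6, 36.8 and 115 CPM in the DMSO libraries. On each day the INT-777 library was the lower one, but the groups overlapped because the day 3 library with INT-777 exceeded the DMSO libraries of days 1 and 2. Without the block the log2 change of −0.64 ± 0.71 did not pass (edgeR adjusted p = 0.713), and with it Dll1 fell 1.52-fold (log2 −0.60 ± 0.05, edgeR adjusted p = 1.11e-06). Within days the log2 changes were −0.56, −0.53 and −0.70. In bulk libraries, fewer cells that make a gene and less RNA per cell cannot be told apart, here and for each gene below.

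Dll4, the other Delta ligand gene of crypt secretory cells among the members (ENSMUSG00000027314, chromosome 2, 119325784 to 119335962, plus strand), was scarcer. It had 10.8, 9.63 and 44.2 CPM in the INT-777 libraries and 13.8, 14.2 and 53.1 CPM in the DMSO libraries. Its INT-777 library was the lower one on each day, while the groups overlapped through day 3. The log2 change was −0.33 ± 0.91 without the block (edgeR adjusted p = 0.892) and −0.38 ± 0.07 with it, a 1.3-fold fall (edgeR adjusted p = 0.00114). The 3 within-day values of −0.36, −0.56 and −0.27 had the widest range of the Dll1, Dll4 and Atoh1 set.

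The receptors did not pass the test with or without the block. Notch1 (ENSMUSG00000026923, chromosome 2, 26457903 to 26516663, minus strand) had 84.8, 82.3 and 57.1 CPM in the INT-777 libraries, against 87.6, 87.1 and 57.9 CPM in the DMSO libraries. Its log2 change was −0.05 ± 0.22 without the block (edgeR adjusted p = 0.929) and −0.05 ± 0.04 with it (edgeR adjusted p = 0.468). Notch2 (ENSMUSG00000027878, chromosome 3, 98013527 to 98150361, plus strand) had 79.4, 75.0 and 57.3 CPM with INT-777 and 73.1, 75.7 and 54.3 CPM with DMSO. Its log2 change was 0.06 ± 0.17 without the block (edgeR adjusted p = 0.893) and 0.06 ± 0.05 with it (edgeR adjusted p = 0.405). Both receptors were lowest in the day 3 libraries, and the groups overlapped. Over the 4 Notch receptor genes, edgeR called 0 in either fit, and 0 had an unadjusted p under 0.05 without the block, against 16.4% of all genes. DESeq2 and limma-voom, run only without the block, also called 0.

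Rbpj, the DNA-binding partner of the cleaved receptor (ENSMUSG00000039191, chromosome 5, 53466152 to 53657362, plus strand), held a narrow range across all libraries. It had 46.8, 46.7 and 42.3 CPM with INT-777 and 42.6, 47.0 and 44.7 CPM with DMSO. The direction differed between days, and the log2 change was 0.02 ± 0.06 without the block (edgeR adjusted p = 0.923) and 0.02 ± 0.05 with it (edgeR adjusted p = 0.87).

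Hes1, the repressor through which Notch holds Atoh1 down (ENSMUSG00000022528, chromosome 16, 30064384 to 30067796, plus strand), was slightly higher with INT-777 on each day. It had 42.6, 41.8 and 38.0 CPM in the INT-777 libraries, against 39.0, 38.2 and 32.9 CPM in the DMSO libraries. The groups overlapped, since the day 3 library with INT-777 lay under the DMSO libraries of days 1 and 2. The log2 change of 0.15 ± 0.08 did not pass without the block (edgeR adjusted p = 0.393). With it the change was 0.16 ± 0.05, or 1.11-fold, and passed narrowly (edgeR adjusted p = 0.042). With the block it did not pass without day 1 (0.0799), day 2 (0.285) or day 3 (0.0704), nor on the sum of both strand columns (0.0591). Hes1 differed by less than Jag2 on each day: the count ratio of Hes1 over Jag2 was 0.628, 0.642 and 0.622 with INT-777 and 0.927, 0.862 and 0.973 with DMSO. These groups did not overlap (exact permutation p = 0.1, two-sided, the smallest possible; 0.35 adjusted over 7 ratios).

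Nrarp, a Notch target whose protein restrains Notch signalling (ENSMUSG00000078202, chromosome 2, 25180758 to 25183339, plus strand), had the fewest counts, and how it was counted set its level. In the column that ignores strand it had 131, 101 and 95 read pairs in the INT-777 libraries and 106, 86 and 99 in the DMSO libraries. In the sum of both strand columns it had 1243, 1182 and 1096 read pairs with INT-777 and 1111, 1104 and 957 with DMSO, so the column that ignores strand kept 7.79 to 10.5% of that sum. The annotated gene Gm38287 overlaps 2051 bases of Nrarp exon on the other strand, where read pairs count as ambiguous if strand is ignored, and Gm38287 itself had 0 counts in every library. The sum can include reads of the antisense gene and is an upper bound. On either count the treatment difference did not pass: the log2 change was 0.14 ± 0.18 (edgeR adjusted p = 0.752) and, with the block, 0.13 ± 0.15 (edgeR adjusted p = 0.602). On the sum of strand columns, tried after the data were seen, it was 0.11 ± 0.08 (edgeR adjusted p = 0.576) and 0.11 ± 0.06 with the block (edgeR adjusted p = 0.237). The column used kept 74.4 to 78% of the sum for Dll1, 87.6 to 91.6% for Dll4, 85.3 to 86.6% for Notch1 and 100% for the other 6 members.

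**Figure D2:**
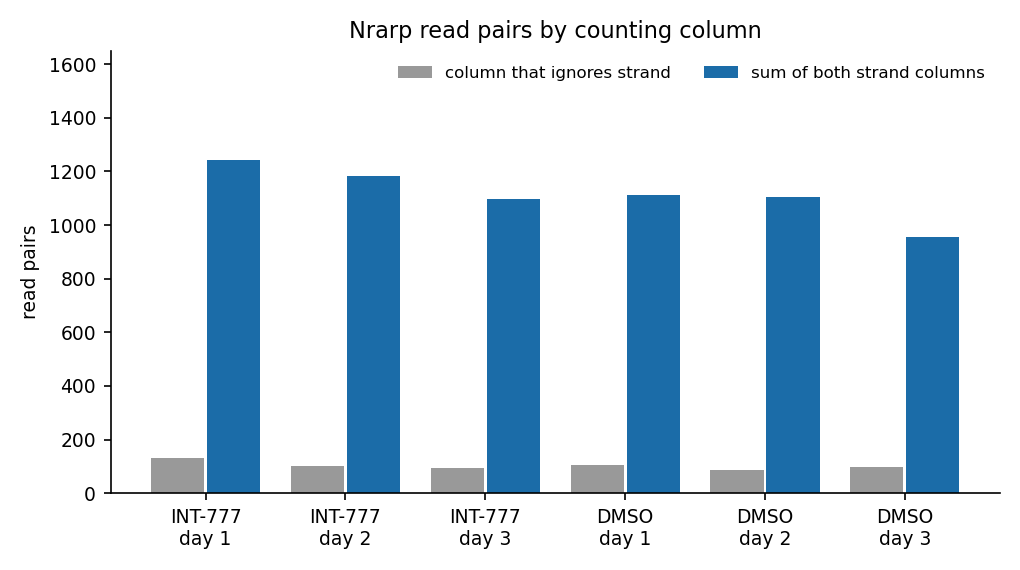
Read pairs assigned to Nrarp in each library in the column that ignores strand (grey) and in the sum of both strand columns (blue), INT-777 left and DMSO right. The sum is 957 to 1243 read pairs and the grey bars are 86 to 131.

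Atoh1 (ENSMUSG00000073043, chromosome 6, 64729125 to 64731245, plus strand) was lower with INT-777 on each day. It had 18.9, 20.5 and 72.2 CPM in the INT-777 libraries, against 29.3, 31.4 and 104 CPM in the DMSO libraries. The spread between days exceeded the difference between groups, and the groups overlapped through day 3. Without the block the log2 change of −0.56 ± 0.82 did not pass (edgeR adjusted p = 0.79). With the block Atoh1 fell 1.5-fold (log2 −0.58 ± 0.05, edgeR adjusted p = 1.43e-06). It also passed with the block without any 1 day, a weak check because those fits leave few libraries to estimate its spread. The within-day log2 changes of −0.63, −0.62 and −0.52 were close to each other. The goblet marker sums given above were also lower with INT-777 on each day, and their part in the Atoh1 difference was not tested.

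Over the 10 members the test without the block called 1 higher and 0 lower, against 0.688% of all 15998 genes called higher and 0.763% lower. At an unadjusted p under 0.05 there were 2 members, against 16.4% of all genes. DESeq2 and limma-voom were run only without the block. DESeq2 also called 1 member, against 4.99% of all genes, and limma-voom 1, against 1.34%. With the day block 3 were called higher (Jag1, Jag2 and Hes1) and 3 lower (Dll1, Dll4 and Atoh1), against 11.1% of all genes higher and 10.3% lower. The median log2 change was 0.04 over the members and 0.003 over all genes. Between libraries of a group the shared biological variation estimated by edgeR was 0.149 as a coefficient, and 0.048 once day was in the model.

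**Figure D3:**
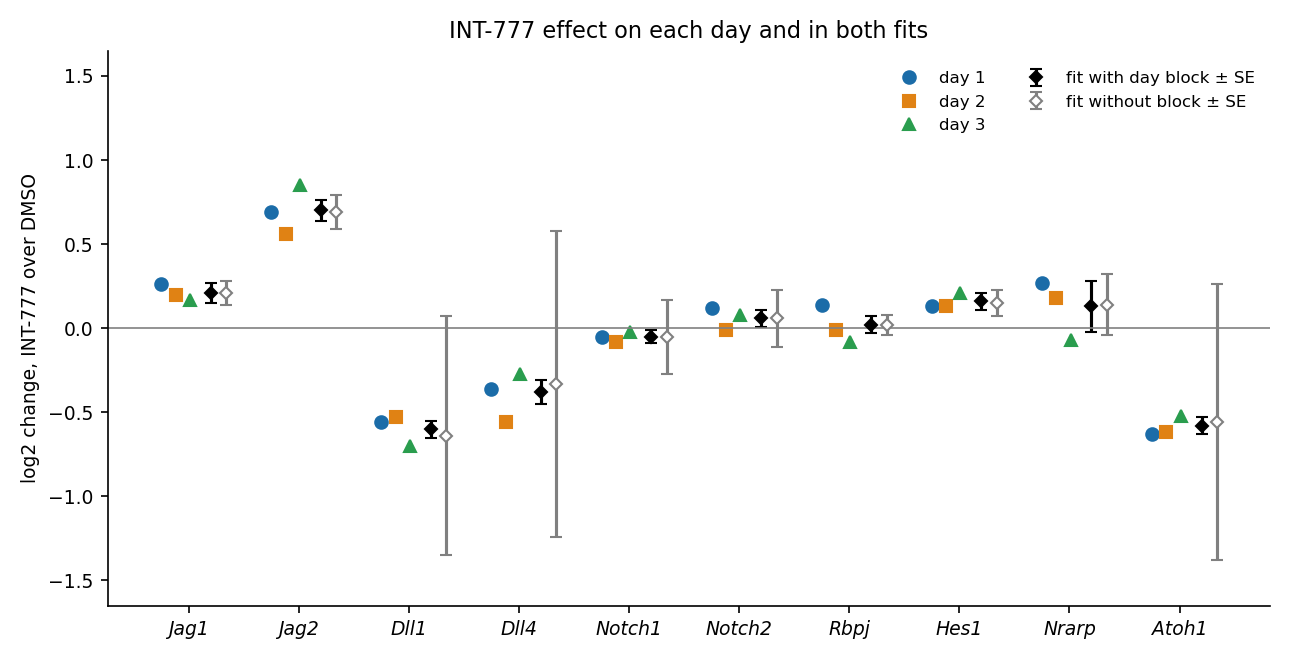
The log2 change of each gene (INT-777 over DMSO) on days 1, 2 and 3 (coloured points), with the fitted value ± SE with the day block (black) and without it (grey). The within-day values of Dll1, Dll4 and Atoh1 are all below 0 and their SE is 0.05, 0.07 and 0.05 with the block, against 0.71, 0.91 and 0.82 without it.

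Hes1 over Atoh1 shifted by nearly the same factor on each day. The count ratio was 2.25, 2.05 and 0.526 in the INT-777 libraries, against 1.33, 1.22 and 0.317 in the DMSO libraries. Hes1 had more counts than Atoh1 on days 1 and 2 in both groups, and fewer on day 3 in both. The log2 ratio averaged 0.43 ± 1.17 with INT-777 and −0.32 ± 1.16 with DMSO, a difference of 0.75 that the spread between days covered (exact permutation p = 0.5, two-sided; 0.7 adjusted over 7 ratios). Within days the difference was 0.76, 0.75 and 0.73, with a mean of 0.75 ± 0.02 (SD over 3 days). An exact sign-flip test over the 3 pairs gave p = 0.25, the smallest that 3 pairs allow. The larger part of the difference lay in Atoh1: on the log2 scale with the block, Atoh1 fell by 0.58 and Hes1 rose by 0.16.

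**Figure D4:**
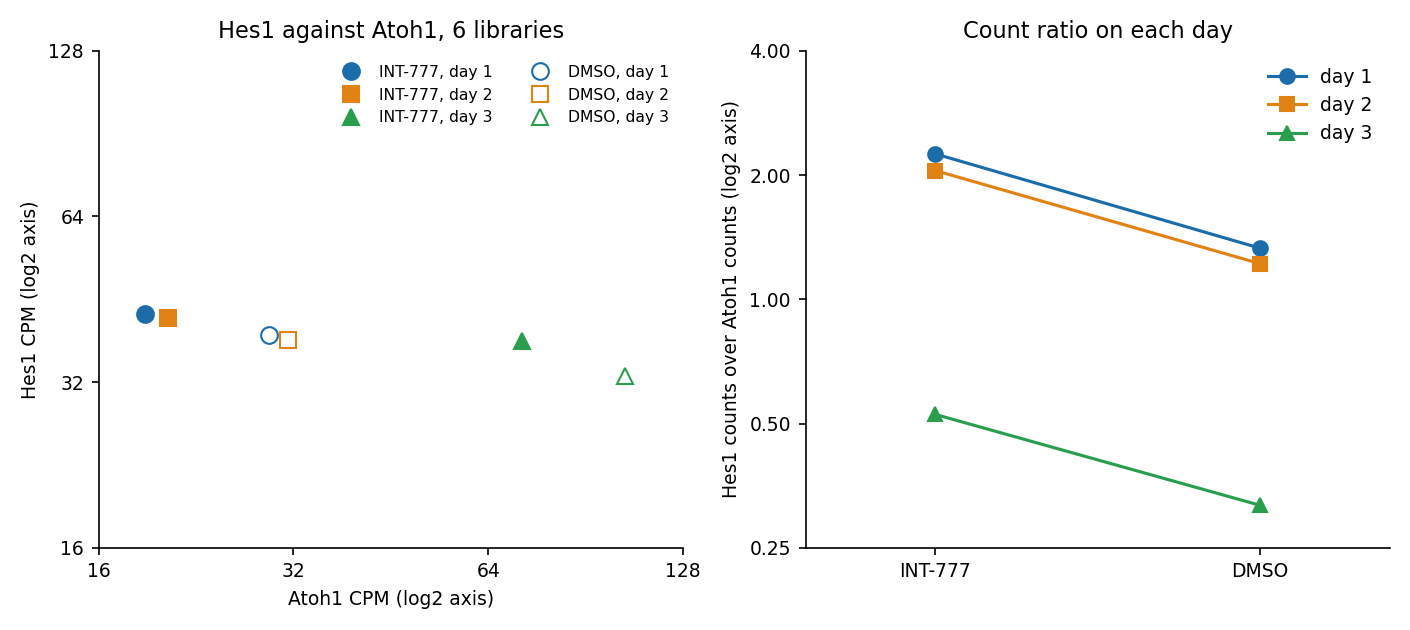
Left, Hes1 against Atoh1 in CPM on log2 axes, with filled INT-777 and open DMSO symbols. Right, the count ratio of Hes1 over Atoh1 (log2 axis), INT-777 left and DMSO right, with lines joining libraries of 1 day; the ratio is higher with INT-777 on each day, and lower on day 3 (0.526 and 0.317) than on days 1 and 2.

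The Delta ligands kept close to Atoh1. The count ratio of Dll1 over Atoh1 was 1.31, 1.25 and 0.981 with INT-777 and 1.25, 1.17 and 1.11 with DMSO (exact permutation p = 1, two-sided). That ratio stayed between 0.981 and 1.31 while Atoh1 itself spanned 18.9 to 104 CPM. Dll4 over Atoh1 was 0.572, 0.471 and 0.612 with INT-777 and 0.472, 0.453 and 0.513 with DMSO (exact permutation p = 0.3, two-sided, 0.53 adjusted over 7 ratios). It was higher with INT-777 on each day, by 0.28, 0.06 and 0.26 on the log2 scale (exact sign-flip p = 0.25, the smallest that 3 pairs allow). The counts of Notch1 and Notch2 also kept near each other, with a ratio of 1.07, 1.1 and 0.996 with INT-777 and 1.2, 1.15 and 1.06 with DMSO (exact permutation p = 0.3, two-sided, 0.53 adjusted). Within days the log2 difference of that ratio was −0.17, −0.07 and −0.10 (exact sign-flip p = 0.25).

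Dll1, Dll4 and Atoh1 were the members that were higher on day 3. With treatment in the model, 6 of the 10 members differed between days, against 20.5% of all genes. On day 3 Atoh1 was 3.54-fold above the mean of days 1 and 2 (log2 1.82 ± 0.05, edgeR adjusted p = 4.4e-12), Dll1 2.97-fold (log2 1.57 ± 0.05, edgeR adjusted p = 2.41e-11) and Dll4 4.04-fold (log2 2.02 ± 0.07, edgeR adjusted p = 2.69e-11). Within groups the day 3 fold of Atoh1 was 3.67 with INT-777 and 3.42 with DMSO, that of Dll1 2.82 with INT-777 and 3.12 with DMSO, and that of Dll4 4.32 with INT-777 and 3.79 with DMSO. These genes were thus high on day 3 in both groups. Notch1 was lower on day 3 (log2 −0.57 ± 0.05, edgeR adjusted p = 1.22e-06), as were Notch2 (log2 −0.44 ± 0.05, edgeR adjusted p = 3.91e-05) and Jag2 (log2 −0.23 ± 0.06, edgeR adjusted p = 0.0345). The Jag2 call by day was lost without DMSO replicate 2 (0.148) or DMSO replicate 3 (0.191), with DESeq2 (0.0551) and on the first strand column (0.162). Hes1 was −0.19 ± 0.06 on day 3 and did not pass (edgeR adjusted p = 0.055), though it passed without INT-777 replicate 3 (0.00878) and with RLE scaling (0.0397). Jag1 (−0.14 ± 0.06), Rbpj (−0.07 ± 0.06) and Nrarp (−0.11 ± 0.16) did not pass either. The sums of goblet, enteroendocrine and immune markers were higher on day 3 in both groups, and the stem cell marker sum and RNA integrity were lower. Their part in the day differences was not tested.

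Per kilobase of exon, the order of the mean levels with INT-777 was led by Hes1 at 20.0 ± 1.22 CPM per kb and Atoh1 at 17.5 ± 14.3 CPM per kb. With DMSO Atoh1 led, at 25.8 ± 20.0 CPM per kb, before Hes1 at 18.0 ± 1.62 CPM per kb. These neighbours did not differ beyond the spread of Atoh1 between days. Dll1 followed, at 9.57 ± 6.25 CPM per kb with INT-777 and 14.9 ± 10.7 CPM per kb with DMSO, and Jag2 had 9.3 ± 0.492 CPM per kb with INT-777 and 5.75 ± 0.795 CPM per kb with DMSO. Notch1 had 5.25 ± 1.08 CPM per kb with INT-777 and 5.45 ± 1.2 CPM per kb with DMSO, and Notch2 had 6.55 ± 1.08 CPM per kb with INT-777 and 6.28 ± 1.08 CPM per kb with DMSO. In the column that ignores strand Notch1 was below Notch2 in all 6 libraries, but that column loses part of the Notch1 counts and none of those of Notch2. On the sum of strand columns Notch1 had 5.66 and Notch2 6.04 CPM per kb with INT-777. With DMSO that sum gave 5.91 CPM per kb for Notch1 and 5.87 for Notch2, so the order of the receptors is not settled. Dll4, at 5.59 ± 5.1 CPM per kb with INT-777 and 7.02 ± 5.87 CPM per kb with DMSO, had a spread between days that covered both receptors. Jag1 had 4.17 ± 0.305 CPM per kb with INT-777 and 3.61 ± 0.163 CPM per kb with DMSO. Rbpj had 3.55 ± 0.199 CPM per kb with INT-777 and 3.51 ± 0.175 CPM per kb with DMSO. Nrarp, at 0.895 ± 0.158 CPM per kb with INT-777 and 0.814 ± 0.085 CPM per kb with DMSO, was last in the column that ignores strand, but had 8.89 CPM per kb with INT-777 and 8.28 CPM per kb with DMSO on the sum of strand columns.

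The rest of the pathway was read from 8 lists, of ligands, receptors, nuclear factors, cleavage enzymes, receptor glycosylation, ligand endocytosis, receptor turnover and targets. They hold 67 genes, of which 61 were tested; Hes3, Hes5, Hey1, Hey2, Heyl and Rbpjl were too low. Leaving out the members, 52 genes were tested. Without the block edgeR called 0 of them, against 0.688% of all genes higher and 0.763% lower. At an unadjusted p under 0.05 there were 10, against 16.4% of all genes. Also without the block, limma-voom called 0, against 1.34% of all genes, and DESeq2 3, all lower, against 4.99% in either direction. With the block 5 were called higher and 9 lower, against 11.1% of all genes higher and 10.3% lower. Their median log2 change was −0.04, against 0.003 over all genes.

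Among the other ligands, Dlk2, a Delta-like protein related to Dlk1, was higher with INT-777 and Dll3, a Delta protein that acts inside its own cell, was lower, both with the block alone. Dlk2 had 6.49, 6.11 and 4.04 CPM with INT-777 and 3.89, 3.62 and 2.16 CPM with DMSO (log2 0.79 ± 0.11, edgeR adjusted p = 0.000155 with the block and 0.217 without). Dll3 was scarce, with 16, 9 and 16 read pairs with INT-777 and 29, 21 and 55 with DMSO (log2 −1.35 ± 0.32, edgeR adjusted p = 0.00671 with the block and 0.187 without). In the ligand endocytosis list, Neurl3, of the Neuralized family of ubiquitin ligases, had 90.2, 83.5 and 100 CPM with INT-777 and 117, 115 and 130 CPM with DMSO. Its groups did not overlap, and it passed with the block (log2 −0.40 ± 0.04, edgeR adjusted p = 7.72e-06) and not without (0.0677). Neurl1a of the same family changed by −0.51 ± 0.13 (edgeR adjusted p = 0.0106 with the block).

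In the cleavage list, Aph1b, a subunit of the gamma-secretase that releases the intracellular part of Notch, changed by −0.44 ± 0.08 on the log2 scale (edgeR adjusted p = 0.000982 with the block and 0.147 without). Adam10, the protease that makes the cut before it, changed by −0.17 ± 0.04 (edgeR adjusted p = 0.00765 with the block and 0.184 without). Lfng, a glycosyltransferase that modifies Notch, changed by −0.21 ± 0.06 (edgeR adjusted p = 0.0191 with the block). Fbxw7, which marks the intracellular part of Notch for degradation, changed by 0.20 ± 0.05 (edgeR adjusted p = 0.0118 with the block), and Dtx3l, of the Deltex family, by −0.21 ± 0.06 (edgeR adjusted p = 0.0336 with the block). Snw1, which joins the RBPJ complex, changed by 0.15 ± 0.05 (edgeR adjusted p = 0.0369 with the block). The column that ignores strand kept 51.9 to 53.5% of the strand sum of Snw1 and 82.3 to 84.6% of that of Dtx3l.

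The targets did not move as 1 group. Of 9 tested, the block called 2 higher (Hes1 and Cdca7) and 1 lower, against 11.1% and 10.3% of all genes. The fit without it called 0, with 2 at an unadjusted p under 0.05, against 16.4% of all genes. The lower one was Olfm4, a crypt base gene that responds to Notch in the intestine, with 119, 123 and 81.8 CPM with INT-777 against 195, 189 and 129 CPM with DMSO. Its groups did not overlap, and its log2 change was −0.66 ± 0.04 (edgeR adjusted p = 3.41e-08 with the block and 0.24 without). Olfm4 is also 1 of the 6 stem cell markers, of which the block called 5 lower and 1 higher, against 10.3% and 11.1% of all genes. Of the same 6, edgeR without the block called 1 lower and 0 higher, against 0.763% and 0.688% of all genes. Lgr5 changed by −0.17 ± 0.05 (edgeR adjusted p = 0.0133 with the block and 0.447 without) and Smoc2 by −0.45 ± 0.04 (edgeR adjusted p = 1.43e-06 with the block and 0.0141 without). Ascl2, a transcription factor of crypt stem cells, was the higher one (log2 0.22 ± 0.06, edgeR adjusted p = 0.0202 with the block and 0.559 without). Cdca7, a Notch target in blood stem cells of the mouse embryo, changed by 0.14 ± 0.04 (edgeR adjusted p = 0.0209 with the block).

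Genes of secretory commitment around Atoh1 were lower with INT-777 in the blocked fit. Of the 22 listed, which include Atoh1, Dll1 and Dll4, the block called 16 lower and 0 higher (10.3% of all genes were lower). Without the block edgeR called 0, with 2 at an unadjusted p under 0.05, against 16.4% of all genes. DESeq2 and limma-voom, run only without the block, also called 0. The list was chosen with results of these data known and is no independent evidence of its direction. Without the members 13 of 19 were lower with the block, and the median log2 change was −0.40 without the block. Spdef, a transcription factor of goblet and Paneth cells, had 15.9, 14.5 and 72.4 CPM with INT-777, against 34.2, 35.8 and 136 CPM with DMSO. It fell with the block (log2 −1.08 ± 0.07, edgeR adjusted p = 5.19e-08), and so did Creb3l1, a transcription factor of secretory cells (log2 −0.79 ± 0.05, edgeR adjusted p = 5.23e-08). The enteroendocrine factors of the list differed among themselves. Neurog3, which starts that lineage, fell with the block (log2 −0.34 ± 0.07, edgeR adjusted p = 0.00276), while Neurod1 stood at −0.03 ± 0.09 on the same scale (edgeR adjusted p = 0.872 with the block), with 4.79, 5.39 and 19.6 CPM with INT-777 and 5.12, 4.82 and 21 CPM with DMSO. The 6 enteroendocrine markers summed to 534, 540 and 2032 CPM with INT-777 and 570, 581 and 2589 CPM with DMSO. Most of each sum was Chgb (377, 375 and 1403 CPM with INT-777 and 411, 422 and 1923 CPM with DMSO). The block called 3 of the 6 markers lower and 0 higher. Chga (log2 0.06 ± 0.05) and Tac1 (0.09 ± 0.05) did not pass with the block. Of the 22 secretory genes, 20 were higher on day 3, against 11.9% of all genes.

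Of the 7 goblet markers the block called 6 lower, against 10.3% of all genes. Without the block edgeR called 0, with 1 at an unadjusted p under 0.05, against 16.4% of all genes. DESeq2 and limma-voom, run only without the block, also called 0. Muc2, the main mucin of goblet cells, was the one that did not pass with the block. It had 318, 303 and 556 CPM with INT-777 against 732, 757 and 2476 CPM with DMSO. Its within-day log2 changes of −1.20, −1.32 and −2.15 were all larger in size than those of Atoh1, but varied between days (log2 −1.56 ± 0.29, edgeR adjusted p = 0.0907 with the block). Tff3, a goblet cell peptide, changed by −0.37 ± 0.05 (edgeR adjusted p = 0.000116 with the block).

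**Figure D5:**
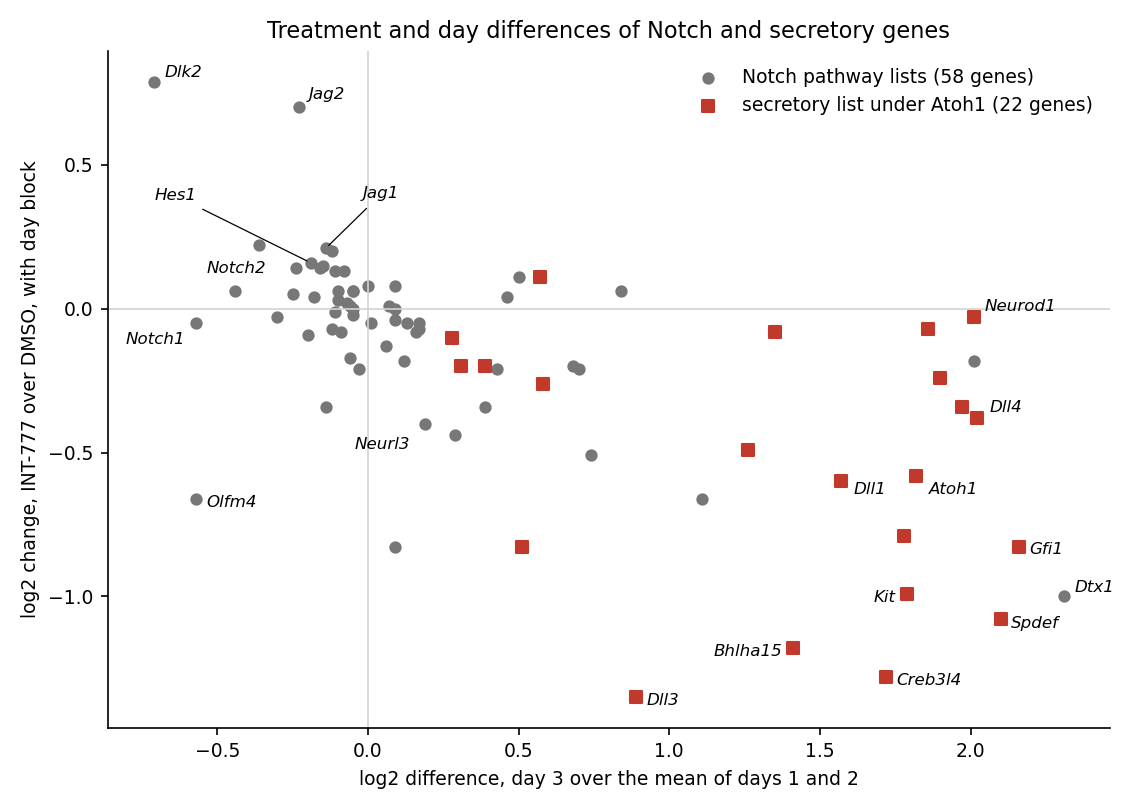
For 58 genes of the Notch lists (grey circles) and the 22 genes of the secretory list (red squares, which take the 3 ligands listed in both), the fitted log2 change with INT-777 over DMSO with the day block against the fitted log2 difference of day 3 over the mean of days 1 and 2. Atoh1, Dll1 and Dll4 lie at lower right with the secretory genes, while Jag2 and Dlk2 lie at upper left.

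The genes whose profiles lay nearest to those of 4 members were found among 11087 protein-coding genes by the Euclidean distance of centred log2 CPM over the 6 libraries, which reads treatment and day at once. Nearest to Atoh1 were Rap1gap (distance 0.129), Selenop (0.205) and Hepacam2 (0.233). Rap1gap had 8.65, 8.61 and 30.9 CPM with INT-777 and 13.2, 14.5 and 47.6 CPM with DMSO. Nearest to Jag2 were Tinagl1 (0.13), Phlda2 (0.137) and Rnf208 (0.147), and Tinagl1 had 140, 133 and 134 CPM with INT-777 and 84.7, 85.9 and 68.5 CPM with DMSO. Hes1 and Jag1 had nearer neighbours. Those of Hes1 were Hspa4 (0.0315), Snx27 (0.0334) and Exoc3 (0.0349), and those of Jag1 were Sppl2b (0.0179), Ttll12 (0.0406) and Dhodh (0.0552).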

How the data were processed

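RNA was measured in 6 libraries, 3 with INT-777 and 3 with DMSO, grouped by the treatment label. The submitters' processing notes name FastQC, STAR 2.73a, edgeR 3.24.3 and the builds GRCm38 and mm10, and no annotation version. The authors deposited raw counts of read pairs per gene, 1 file per library, not normalised. Values were taken from the unstranded column, since the strand columns were nearly equal (the first held 50.1 to 50.6%); read pairs on genes that overlap on opposite strands are then ambiguous and were not counted. Gene names came from GENCODE M21, which matched 54809 of 54838 IDs. Each library had 60717640 to 63604301 pairs, of which 74.5 to 75.7% were assigned to genes. The rest stayed out of library sizes and tests: 10.3 to 11.3% were unmapped, 5.96 to 6.31% mapped to several places, 3.32 to 3.83% met no gene and 4.35 to 4.54% were ambiguous.

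Genes were filtered with filterByExpr, which left 15998, scaled with TMM and tested with edgeR 4.0.16 in R 4.3.3 (robust quasi-likelihood test, two-sided, treatment as the single term, Benjamini-Hochberg adjusted p under 0.05 over all genes). A fold of a lower gene is given as its size. Days were tested with an F-test in a model of treatment and day. Ratios of 2 genes were compared with exact permutation tests in Python 3.11.15. The tests were also run on simulated data. The simulated treatment counts had no day difference and varied less between libraries of a group than the real ones without day in the model. They therefore do not show how often changes would be found in these data.

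The labels give the replicate number as the day of the sort, which pairs the libraries. Same-day deviations from the group means had correlations of 0.329, 0.369 and 0.632 on days 1, 2 and 3, while INT-777 replicate 1 and DMSO replicate 2 had 0.336. The alternatives were the day block, RLE and upper quartile scaling, DESeq2 1.42.0, limma-voom (limma 3.58.1), other filters, the strand columns, RNA integrity as a covariate, and fits that left out 1 library or 1 day. For treatment, DESeq2, limma-voom and the fits that left out 1 library were run without the day block.

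The members and lists were chosen with earlier results of these data known. Genes named beside the members are those of the Notch lists past the threshold, the 2 of smallest p per list among those called with the block alone, Muc2, Tff3 and Lgr5, and the 3 nearest profiles of Hes1, Atoh1, Jag1 and Jag2. Dlk2, Dll3, Neurod1, Neurog3, Smoc2, Ascl2, Slc12a2, Fcgbp, Chgb, Chga, Tac1 and the genes too low to test were named after their values were seen.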

Additional observations from a re-analysis of the deposited data

How the results depend on the processing

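The count of genes called by treatment, 232, became 3415 with the day block, 798 with DESeq2, 435 with no low-count filter and 2036 with RNA integrity as a covariate. It was 8 to 273 with 1 library left out, and 0, 3 and 4292 without both libraries of days 1, 2 and 3 (without day 1, edgeR had 1189 genes at an unadjusted p under 0.05). With alternatives chosen after seeing the data, it was 3608 with the block on the sum of both strand columns, and 3247, 1940 and 3853 with the block without days 1, 2 and 3. The count of members called, 1, became 6 with the day block, 5 with the block on the strand sum, 4, 4 and 5 with the block without days 1, 2 and 3, and 0, 0 and 6 without those days and no block; with 1 library left out it was 0 to 1. The 6 members called by day became 0 without day 3, where the day test called 0 of all 16002 genes tested. With 1 library left out it was 5 to 7 members, and 2010 to 4867 of all genes. The cause of these shifts was not tested. Fits with the block that leave out a day keep few libraries to estimate the spread of each gene, so their calls are a weak check. Hes1 over Atoh1 kept its direction in every alternative run. Its log2 difference between group means was 0.739, 0.747 and 0.755 without days 1, 2 and 3. With 1 library left out it ran from 0.079 (without DMSO replicate 3) to 1.423 (without INT-777 replicate 3). Those means hold unequal days in the 2 groups, and the within-day differences were 0.76, 0.75 and 0.73.

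Jag2 kept its direction in all 24 alternatives (log2 0.573 to 0.767) and lost its call in 6; Jag1 and Hes1 also kept theirs. Leaving out 1 library, always in a fit without the day block, reversed some directions. Such a fit leaves the days unequal between the groups. Atoh1 (−1.484 to 0.279), Dll1 (−1.325 to 0.124) and Dll4 (−1.412 to 0.606) reversed without DMSO replicate 3, and Dll4 also without INT-777 replicate 2 (0.021). With the block these 3 genes kept their direction without days 1, 2 and 3. Atoh1 was −0.562, −0.586 and −0.631, Dll1 −0.618, −0.647 and −0.552, and Dll4 −0.384, −0.318 and −0.462. Notch1 (−0.236 to 0.10), Notch2 (−0.087 to 0.181), Rbpj (−0.021 to 0.055) and Nrarp (−0.015 to 0.213) reversed without some libraries. Notch1 also reversed with RNA integrity as a covariate (0.014), and Rbpj with upper quartile scaling (−0.003), on the first strand column (−0.007), and when day 1 was left out, both without the block (−0.041) and with it (−0.042). Dll3, and Nrarp in the column that ignores strand, have few counts, which limits the differences that can be seen in them.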

Other observations

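The loss of read pairs seen at Nrarp was looked for across the table. Of 12403 genes with at least 100 read pairs per library in the sum of both strand columns, 1148 (9.26%) kept under 20% of that sum in the column that ignores strand, in all 6 libraries. Among 11021 protein-coding genes there were 267 (2.42%). Nrarp was the one member under that limit. In the other lists, Sox4 of the secretory list kept 40.1 to 42.8% and Snw1 of the nuclear list 51.9 to 53.5%.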
